A study of Mus musculus with 16 samples.

Results

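The genes described here are 35 mouse genes of the actin cytoskeleton and of the smooth muscle contractile apparatus. They are a list of gene names, with no threshold on measured values, drawn up with earlier results of these data known. All 35 were found among the 19666 gene names that every RNA library of the series shares. They were read in 2 classes and 1 regulator. The contractile class holds 19 genes of smooth and striated muscle, the non-muscle class holds 15 genes used by most cells, and the regulator is Srf. The series asks how c-Jun drives embryonic stem cells (ESC) to differentiate, and how it and related factors act in the reprogramming of fibroblasts.

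The 13 RNA libraries fall into 13 groups of 1 library each, so no comparison has a replicate check and no p-value is given. The groups on day 3 of reprogramming are mouse embryonic fibroblasts (MEF) given Klf4, Sox2 and c-Myc (KSM) together with Oct4, c-JunDN, Jdp2 or DR. The MEF groups over-express c-Jun, c-JunDN, Jdp2, Oct4 or DR, or are wild type (WT). The ESC groups are a c-Jun TetOn line after 36 h of doxycycline, the same line without doxycycline, and WT ESC. All cells are OG2 cells, from mice that carry a green fluorescent reporter of Oct4 expression, on a mixed background of 129SVJ, C57B6 and CBA. The ESC were at passage 5 and the MEF, KSM cultures included, at passage 2. The labels do not spell out DR or DN. DR is treated here as the control of the over-expression cultures, since the labels give no other matched one. MEF cultures can hold several cell types, and in such bulk RNA fewer cells of a type and less RNA per cell cannot be told apart.

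Actin filaments give a cell its shape, and non-muscle myosin II pulls on them. Every cell makes the cytoplasmic actins from Actb and Actg1, while the muscle actins of Acta1, Acta2, Actc1 and Actg2 belong to skeletal, vascular smooth, cardiac and enteric smooth muscle. Fibroblasts that turn into myofibroblasts switch on Acta2, Tagln and other smooth muscle genes. Serum response factor, made from Srf, binds the CArG box in many of these genes. Its cofactors include Myocd, Mkl1 and Mkl2, and unpolymerised actin holds Mkl1 and Mkl2 in the cytoplasm, so that the state of the filaments feeds back on the genes. c-Jun is a subunit of AP-1, and Jdp2 is a partner of c-Jun that acts as a repressor at AP-1 sites. AP-1 sites were searched here as TGANTCA with any base at N, so not every match need be an AP-1 site.

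Promoter sequences are shown for some members in which these elements lie next to the start site. The comparisons below were not split by these elements, and their part in the changes was not tested. Windows of 300 bases, from 250 before to 50 after the start, came from RefSeq on GRCm38.p6 and were found for 31 of the 35 members, not for Actb, Actg2, Myh11 and Tagln. The CArG box was found in 8 of these 31 members (25.8%), against 488 of 27025 genes (1.81%). It lay in the windows of Acta1, Actc1, Actg1, Cnn2, Myl6, Myl9, Srf and Vcl, that is in 3 of 16 contractile and 4 of 14 non-muscle members with a window, and in Srf itself. TGANTCA was found in 4 of the 31 (12.9%), namely Actn4, Cald1, Mylk and Zyx, against 2425 of 27025 genes (8.97%). The match in Actn4 reads TGAATCA, and those in Cald1, Mylk and Zyx read TGAGTCA. Both strands were searched, and no member's window held both elements. The lines below run 5′ to 3′ on the gene's own strand with the element in capitals, and a match describes these letters, not a bound site.
Srf (chr17:46556185-46556274, minus strand, boxes starting at -82 and -62): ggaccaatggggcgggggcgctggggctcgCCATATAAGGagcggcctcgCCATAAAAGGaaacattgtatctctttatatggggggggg
Actg1 (chr11:120348546-120348615, minus strand, box at -90): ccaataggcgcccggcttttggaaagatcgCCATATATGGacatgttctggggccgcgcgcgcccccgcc
Acta1 (chr8:123894809-123894878, minus strand, box at -73): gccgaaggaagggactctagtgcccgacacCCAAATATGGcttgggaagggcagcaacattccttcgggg
Myl9 (chr2:156775273-156775342, plus strand, box at -161): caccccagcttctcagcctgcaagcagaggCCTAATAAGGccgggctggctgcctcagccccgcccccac
Vcl (chr14:20929148-20929210, plus strand, box at -227): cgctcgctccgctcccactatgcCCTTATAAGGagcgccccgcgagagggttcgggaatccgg
Mylk (chr16:34784856-34784922, plus strand, AP-1 element at -64): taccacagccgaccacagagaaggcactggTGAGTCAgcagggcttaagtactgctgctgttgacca
Zyx (chr6:42349677-42349743, plus strand, AP-1 element at -121): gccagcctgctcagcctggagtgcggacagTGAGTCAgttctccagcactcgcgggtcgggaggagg

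Levels are counts scaled to library size (CPM) with 1 scale for all libraries, and each change is the log2 ratio of CPM + 1. Genes that reached 5 CPM in either library of a pair count as measured there, and those that differed by 2-fold or more as called. The 4 comparisons of over-expressing MEF share the DR library, as do the 3 within KSM their own, so results that share a control are not independent of each other. Folds carry an exact 95% interval that covers counting error only, not the spread between cultures. Totals over the shared names were 2323086 to 3104984 in KSM, 1834716 to 2326536 in over-expressing MEF, and 2106254 to 2541971 in the c-Jun ESC line. WT MEF (20714642) and WT ESC (11259629) were read far more deeply, so 3 counts were worth 0.908 to 1.61 CPM in all libraries but these. Jun stood at 12884 CPM in MEF with c-Jun and 4203 with c-JunDN, against 94.5 with DR, and at 2175 in induced ESC, against 23.2 in uninduced ESC. Jdp2 stood at 7741 CPM in MEF with Jdp2, against 82.1 with DR, and Pou5f1, the gene of Oct4, at 10386 in MEF with Oct4, against 2.58 with DR. The added factors were lower in KSM than in MEF. There Jun stood at 377 CPM with c-JunDN, against 73.0 with DR. Jdp2 stood at 403 CPM in KSM with Jdp2, against 3.21 with DR, and Pou5f1 at 1860.5 in KSM with Oct4, against 4.41 with DR. The MEF Oct4 library was quantified on another gene annotation (Ensembl) than the rest, which can move the values of genes whose models differ. Near-identical family members, the 6 actins above all, share reads that the authors' software divided between them, so their separate values are less certain than those of single genes.

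The 35 genes together made up 0.785% to 0.964% of all transcripts on day 3 of KSM, 3.24% in MEF with DR, 5.46% in WT MEF and 1.1% to 2.02% in ESC. The cell types carried their markers: 7 fibroblast markers summed to 82619 CPM in WT MEF and 4687 in WT ESC, and 7 ESC markers to 1 CPM in WT MEF and 5568 in WT ESC. WT ESC were not free of fibroblast markers, with Fn1 at 3384 CPM, Col1a1 at 480, Col3a1 at 395 and Col1a2 at 388.5. Pdgfrb, Dcn and Thy1 were at 9.61 to 17.5 CPM there.

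The levels in every library are given first by role, beginning with the actins of smooth and skeletal muscle. Acta2 had 8.17, 23.5, 32.7 and 10.4 CPM in KSM with Oct4, c-JunDN, Jdp2 and DR, 643, 2301, 1460.3, 806 and 3032 in MEF with c-Jun, c-JunDN, Jdp2, Oct4 and DR, 6969 in WT MEF, and 9.88, 2.47 and 10.9 in induced, uninduced and WT ESC. Actg2 had 1.21, 0.673, 2.6 and 0 CPM in KSM with Oct4, c-JunDN, Jdp2 and DR, 41.4, 149, 91.5, 481 and 227 in MEF with c-Jun, c-JunDN, Jdp2, Oct4 and DR, 405 in WT MEF, and 1.1, 0.989 and 0.097 in induced, uninduced and WT ESC. Acta1 had 0.908, 2.69, 2.97 and 2.01 CPM in KSM with Oct4, c-JunDN, Jdp2 and DR, 14.5, 183, 1.61, 6.4 and 15.5 in MEF with c-Jun, c-JunDN, Jdp2, Oct4 and DR, 131.5 in WT MEF, and 23.8, 0.989 and 0.582 in induced, uninduced and WT ESC. For Acta2 and Actg2 each MEF library lay above each KSM and ESC library, whereas Acta1 was high in MEF with c-JunDN and WT MEF and lower in the other MEF libraries than in induced ESC. Actb, a cytoplasmic actin gene, had 1389.5, 1225, 1117 and 1079 CPM in KSM with Oct4, c-JunDN, Jdp2 and DR, 2440.5, 2046, 1489, 2265.5 and 2491 in MEF with c-Jun, c-JunDN, Jdp2, Oct4 and DR, 6127 in WT MEF, and 1799, 2657 and 3644 in induced, uninduced and WT ESC. Actg1, the other one, had 1587.5, 1999.5, 1879 and 2258 CPM in KSM with Oct4, c-JunDN, Jdp2 and DR, 3738, 3101, 2383, 3916 and 3395 in MEF with c-Jun, c-JunDN, Jdp2, Oct4 and DR, 6721 in WT MEF, and 4337, 2976 and 3208 in induced, uninduced and WT ESC. Srf had 51.2, 61.6, 46.4 and 51.7 CPM in KSM with Oct4, c-JunDN, Jdp2 and DR, 47.9, 54.3, 61.0, 52.8 and 69.7 in MEF with c-Jun, c-JunDN, Jdp2, Oct4 and DR, 116 in WT MEF, and 51.6, 80.6 and 89.6 in induced, uninduced and WT ESC. These 3 were highest in WT MEF, and their ranges in MEF and ESC overlapped.

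The genes of the myosin motor and its control come next. Mylk, the myosin light chain kinase gene, had 0, 0.673, 0.371 and 0.401 CPM in KSM with Oct4, c-JunDN, Jdp2 and DR, 3.77, 133, 444, 2.13 and 82.6 in MEF with c-Jun, c-JunDN, Jdp2, Oct4 and DR, 92.5 in WT MEF, and 0, 0.494 and 1.36 in induced, uninduced and WT ESC. Myl9, a regulatory light chain gene, had 0, 5.05, 8.91 and 4.01 CPM in KSM with Oct4, c-JunDN, Jdp2 and DR, 55.4, 515, 327, 548.5 and 486 in MEF with c-Jun, c-JunDN, Jdp2, Oct4 and DR, 825 in WT MEF, and 4.02, 22.7 and 2.72 in induced, uninduced and WT ESC. Myh11, the smooth muscle heavy chain gene, had 0.908, 0, 0.742 and 0 CPM in KSM with Oct4, c-JunDN, Jdp2 and DR, 17.2, 60.4, 62.1, 3.73 and 87.8 in MEF with c-Jun, c-JunDN, Jdp2, Oct4 and DR, 161 in WT MEF, and 0, 0.494 and 1.36 in induced, uninduced and WT ESC. Mylk, Myl9 and Myh11 were each higher in every MEF library than in any KSM or ESC library. The levels of Mylk in MEF with c-Jun and with Oct4, and of Myh11 in MEF with Oct4, were close to those outside MEF. Myh10, a non-muscle heavy chain gene, had 120.5, 183, 141 and 133 CPM in KSM with Oct4, c-JunDN, Jdp2 and DR, 516, 1417, 725, 293 and 708 in MEF with c-Jun, c-JunDN, Jdp2, Oct4 and DR, 2114 in WT MEF, and 256, 201 and 286 in induced, uninduced and WT ESC. The lowest MEF level of Myh10, with Oct4, was barely above WT ESC, and the highest was in WT MEF.

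Tropomyosin, caldesmon, calponins and transgelins lie along the actin filament. Tagln had 5.45, 22.5, 27.1 and 12.0 CPM in KSM with Oct4, c-JunDN, Jdp2 and DR, 436, 1191.5, 1282.5, 1352 and 1321 in MEF with c-Jun, c-JunDN, Jdp2, Oct4 and DR, 2463 in WT MEF, and 155, 21.3 and 7.08 in induced, uninduced and WT ESC. Tpm1 had 172, 285, 349.6 and 226 CPM in KSM with Oct4, c-JunDN, Jdp2 and DR, 617, 1408, 892, 819 and 1789.6 in MEF with c-Jun, c-JunDN, Jdp2, Oct4 and DR, 2769 in WT MEF, and 1144, 124 and 89.2 in induced, uninduced and WT ESC. Tpm2 had 7.87, 15.1, 34.9 and 22.9 CPM in KSM with Oct4, c-JunDN, Jdp2 and DR, 216, 295, 196, 321 and 432 in MEF with c-Jun, c-JunDN, Jdp2, Oct4 and DR, 516 in WT MEF, and 114, 15.3 and 7.57 in induced, uninduced and WT ESC. For Tagln and Tpm2 the MEF libraries lay above all others, and for Tpm1 induced ESC stood among the MEF libraries. Cald1, the caldesmon gene, had 147, 292, 255 and 250.3 CPM in KSM with Oct4, c-JunDN, Jdp2 and DR, 1131, 1958, 1956.5, 1159.9 and 1848.5 in MEF with c-Jun, c-JunDN, Jdp2, Oct4 and DR, 3158 in WT MEF, and 629, 70.7 and 309 in induced, uninduced and WT ESC. Cnn1, smooth muscle calponin, had 0, 1.35, 1.48 and 0.401 CPM in KSM with Oct4, c-JunDN, Jdp2 and DR, 26.4, 88.6, 54.1, 58.1 and 109 in MEF with c-Jun, c-JunDN, Jdp2, Oct4 and DR, 308 in WT MEF, and 15.0, 4.94 and 0.194 in induced, uninduced and WT ESC. Cnn2, a calponin of many cell types, had 7.57, 41.7, 52.0 and 26.5 CPM in KSM with Oct4, c-JunDN, Jdp2 and DR, 329, 730.4, 412, 753 and 735 in MEF with c-Jun, c-JunDN, Jdp2, Oct4 and DR, 807 in WT MEF, and 134, 92.4 and 36.0 in induced, uninduced and WT ESC. All 3 separated MEF from KSM and ESC without overlap. Tagln2 had 374.5, 364, 360.3 and 504 CPM in KSM with Oct4, c-JunDN, Jdp2 and DR, 546, 162.5, 160.1, 386.5 and 246 in MEF with c-Jun, c-JunDN, Jdp2, Oct4 and DR, 459.5 in WT MEF, and 326, 55.9 and 71.8 in induced, uninduced and WT ESC. Csrp1, a LIM protein gene, had 20.9, 36.3, 44.9 and 38.1 CPM in KSM with Oct4, c-JunDN, Jdp2 and DR, 165, 207, 402, 473 and 457 in MEF with c-Jun, c-JunDN, Jdp2, Oct4 and DR, 928.5 in WT MEF, and 325, 79.1 and 87.1 in induced, uninduced and WT ESC. Tagln2 was the one of these genes with KSM levels inside the MEF range, and Csrp1 in induced ESC lay inside that range as well.

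The last genes anchor filaments to adhesions or to the sarcomere and dense bodies. Flnc had 35.1, 182, 208 and 113 CPM in KSM with Oct4, c-JunDN, Jdp2 and DR, 1354, 677, 455, 435 and 543 in MEF with c-Jun, c-JunDN, Jdp2, Oct4 and DR, 989 in WT MEF, and 2687, 21.3 and 28.2 in induced, uninduced and WT ESC. Des had 0.908, 4.37, 4.45 and 4.01 CPM in KSM with Oct4, c-JunDN, Jdp2 and DR, 42.0, 43.0, 27.3, 22.9 and 52.7 in MEF with c-Jun, c-JunDN, Jdp2, Oct4 and DR, 30.2 in WT MEF, and 228, 5.93 and 11.4 in induced, uninduced and WT ESC. Synpo2, the myopodin gene, had 3.94, 2.35, 2.23 and 3.21 CPM in KSM with Oct4, c-JunDN, Jdp2 and DR, 2.69, 9.99, 47.1, 8.0 and 7.23 in MEF with c-Jun, c-JunDN, Jdp2, Oct4 and DR, 11.7 in WT MEF, and 15.4, 2.97 and 0.97 in induced, uninduced and WT ESC. Flnc and Des were highest in induced ESC, above every MEF library, and Synpo2 was highest in MEF with Jdp2. Vcl, the vinculin gene, had 153, 202.5, 222 and 209 CPM in KSM with Oct4, c-JunDN, Jdp2 and DR, 450, 607, 761, 785 and 965 in MEF with c-Jun, c-JunDN, Jdp2, Oct4 and DR, 2674 in WT MEF, and 483, 148 and 232 in induced, uninduced and WT ESC. Zyx, the zyxin gene, had 81.1, 97.5, 117 and 76.6 CPM in KSM with Oct4, c-JunDN, Jdp2 and DR, 492.5, 442, 250.5, 1774 and 547 in MEF with c-Jun, c-JunDN, Jdp2, Oct4 and DR, 599 in WT MEF, and 189.8, 40.0 and 18.0 in induced, uninduced and WT ESC. Pdlim7, a PDZ and LIM protein gene, had 32.7, 46.4, 44.9 and 61.8 CPM in KSM with Oct4, c-JunDN, Jdp2 and DR, 139.9, 132, 89.4, 116 and 165 in MEF with c-Jun, c-JunDN, Jdp2, Oct4 and DR, 184.5 in WT MEF, and 119, 55.4 and 17.8 in induced, uninduced and WT ESC. Zyx was higher in every MEF library than outside MEF, while Vcl and Pdlim7 in induced ESC lay within the MEF range. Of the other 11 members, Lmod1 was at 23.7 to 172 CPM in MEF and 0 to 3.29 CPM elsewhere, and Actc1 did not pass 4.76 CPM, its level in induced ESC. Flna, filamin A, was at 872 to 1307 CPM in KSM, 2387 to 8906 in MEF and 659 to 1298 in ESC. Smtn, smoothelin, was at 21.3 to 26.0 CPM in KSM, 42.1 to 101 in MEF and 36.1 to 184 in ESC. The remaining 7, Actn1, Actn4, Cnn3, Myh9, Myl6, Tpm3 and Tpm4, stayed between 110.5 and 5552 CPM in all 13 libraries.

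**Figure D1:**
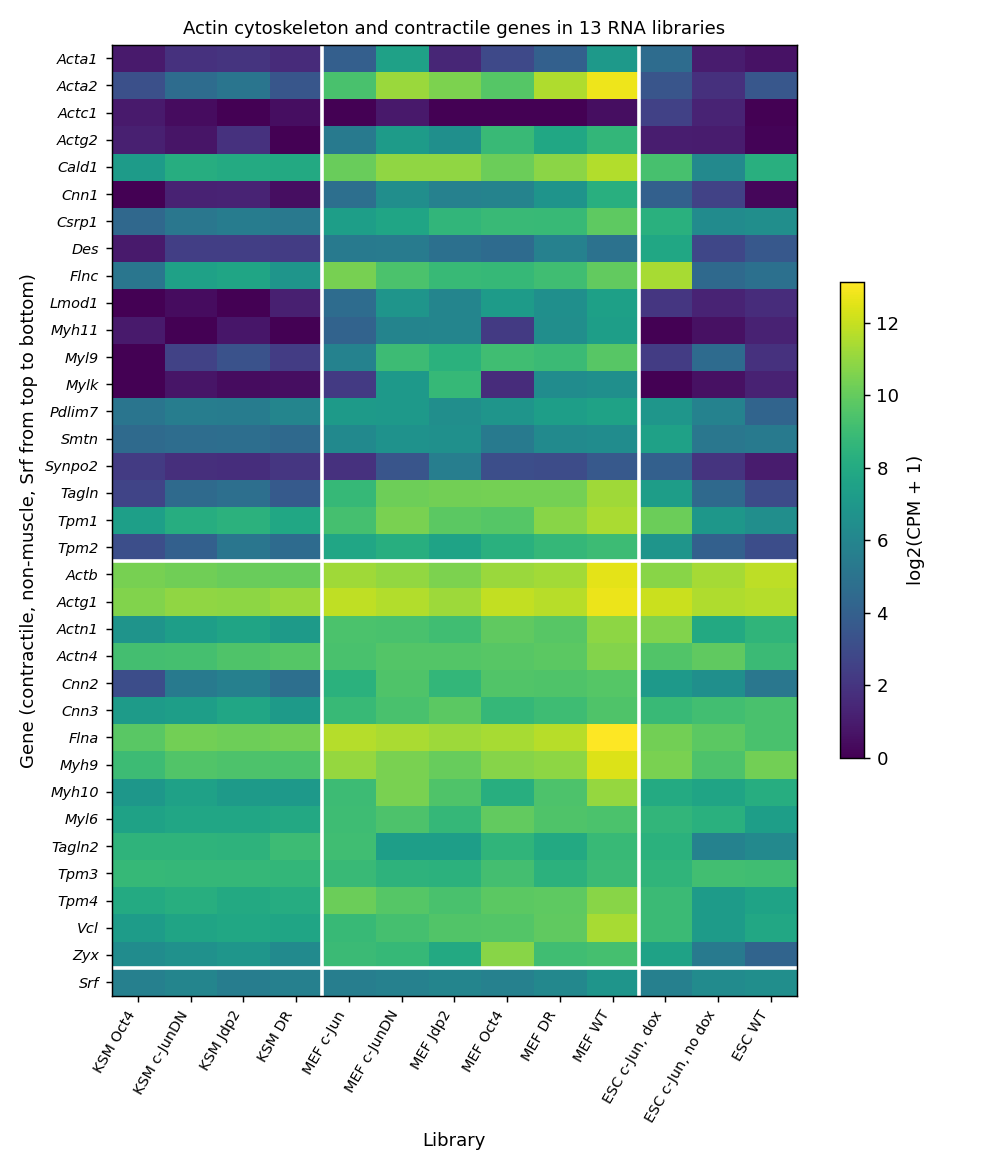
Levels of the 35 genes (rows: contractile, non-muscle, then Srf) in the 13 libraries (columns: KSM, MEF, ESC), coloured by log2(CPM + 1). Acta2, Actg2, Myl9 and Tagln are brighter in every MEF library than in any KSM or ESC library, Flnc and Des are brightest in induced ESC, and Actb stays at or above 1079 CPM in every library.

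Per unit of transcript length (TPM), the muscle actins were a large part of the actin transcripts of MEF and a very small one elsewhere. In KSM their share of the TPM of all 6 actin genes was 0.436% with Oct4, 0.923% with c-JunDN, 1.4% with Jdp2 and 0.433% with DR. In MEF it was 11.0% with c-Jun, 36.1% with c-JunDN, 30.3% with Jdp2 and 20.0% with Oct4, against 37.8% with DR and 38.9% in WT MEF. Acta2 alone held 9.85% with c-Jun and 11.0% with Oct4, against 34.1% with DR. In ESC the share was 0.808% with c-Jun induced, against 0.132% uninduced and 0.182% in WT ESC. Acta2 made most of the share in MEF. Within MEF, Actg2 held 8.84% with Oct4 against 3.46% with DR, and Acta1 held 3.0% with c-JunDN against 0.219% with DR. In induced ESC, Acta1 at 0.505% exceeded Acta2 at 0.172%.

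**Figure D2:**
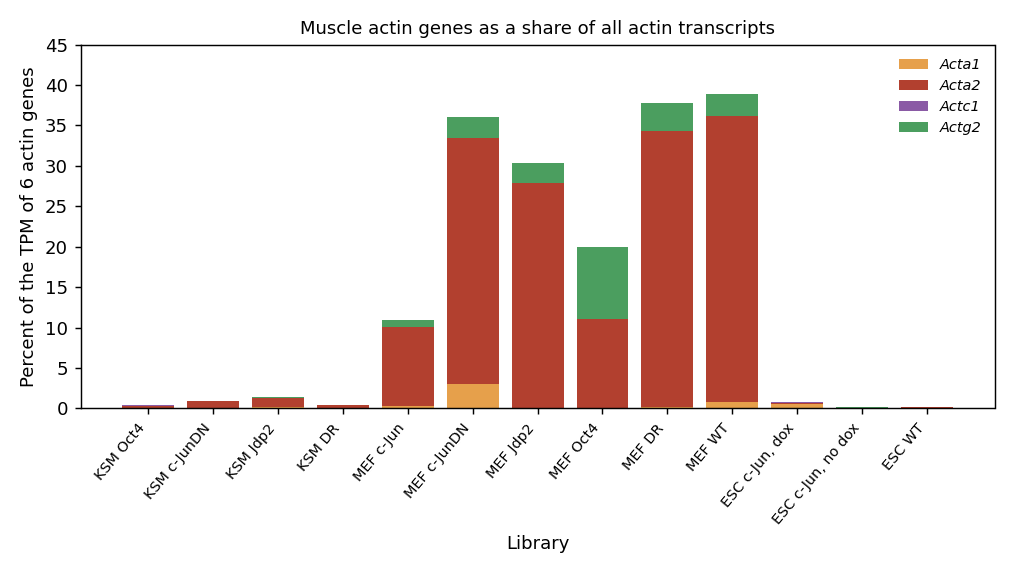
Stacked bars give Acta1, Acta2, Actc1 and Actg2 as a percent of the TPM of the 6 actin genes in each library (one bar per library, no error bars because each group is 1 library). MEF with c-Jun is at 11.0%, against 37.8% for MEF with DR and 38.9% for WT MEF, and no KSM or ESC library passes 1.4%.

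WT fibroblasts held far more of these transcripts than WT stem cells. In WT MEF against WT ESC, 29 of 34 measured members were called higher and none lower, where 23.9% of all measured genes were called higher and 30.2% lower. The median log2 change was 5.55 over 18 measured contractile genes, 2.33 over 15 non-muscle genes and -0.22 over all genes. Of the 18 contractile genes, 10 reached 5 CPM in both libraries. The rest were measured only through WT MEF and so could not have been called lower. Acta2 had 6969 CPM in WT MEF and 10.9 in WT ESC, a 641-fold difference (interval 533 to 779). Tagln had 2463 and 7.08 CPM in WT MEF and WT ESC, 348-fold apart (277 to 444). Myl9, the regulatory light chain of smooth muscle myosin, had 825 CPM in WT MEF and 2.72 in WT ESC. Among non-muscle genes Zyx, which codes for the focal adhesion protein zyxin, differed most, with 599 CPM in WT MEF and 18.0 in WT ESC, while Actb, Cnn3, Tpm3 and Srf stayed within 2-fold, as did the contractile gene Smtn. The call of Actg1, 2.1-fold higher, was lost on total count scaling at a log2 change of 0.76.

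After 36 h of c-Jun induction in ESC most of the measured contractile genes were higher. Of 30 measured members, 19 were called higher and 1 lower than in the uninduced line, where 21.3% of all measured genes were called higher and 19.7% lower. On TPM, 66.0% of all called genes were higher, against 52.0% on CPM. In the contractile class 13 of 14 measured genes were higher and 1 lower, with a median log2 change of 2.56, while 6 of 15 non-muscle genes were higher and none lower, with a median of 0.53, against -0.09 over all genes. Of the 14 measured contractile genes, 9 reached 5 CPM in both libraries. Acta1, Acta2, Cnn1 and Synpo2 were measured only through induced ESC and so could not have been called lower. Myl9 was measured only through uninduced ESC and so could not have been called higher. Against WT ESC 19 of 29 measured members were higher and 1 lower, where 14.6% of all measured genes were called higher and 23.2% lower.

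The largest differences in induced ESC were in Flnc and Des, which code for the muscle filamin C and the intermediate filament protein desmin. Flnc had 2687 CPM in induced ESC and 21.3 in uninduced ESC, 126-fold higher (93.8 to 175), and stood at 28.2 CPM in WT ESC. Des had 228 CPM in induced and 5.93 in uninduced ESC, 38.5-fold higher (21.9 to 74.9). Flnc was higher in induced ESC than in any MEF library, where it reached 1354 CPM at most. Skeletal actin, Acta1, had 23.8 CPM in induced and 0.989 in uninduced ESC. The ratio of 24.1 rests on 2 counts in the uninduced line (6.4 to 203).

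The tropomyosin and caldesmon genes were also higher in induced ESC. Tpm1 had 1144 CPM in induced and 124 in uninduced ESC, 9.26-fold higher (8.14 to 10.6). Cald1 had 629 and 70.7 CPM in induced and uninduced ESC, 8.9-fold higher (7.5 to 10.6). Tpm2 was 7.42-fold higher (5.12 to 11.1) and Tagln 7.3-fold higher (5.33 to 10.2). WT ESC had 89.2 CPM of Tpm1, 309 of Cald1, 7.57 of Tpm2 and 7.08 of Tagln. The Cald1 level of induced ESC was thus much closer to WT ESC than to the uninduced line. Gene-level counts do not separate muscle from non-muscle transcripts of Tpm1, Cald1 or Vcl. Among tropomyosin transcripts by TPM, Tpm1 held 58.8% in induced ESC against 17.3% in uninduced ESC, and Tpm3 held 16.8% against 65.5%.

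Of the non-muscle class, 6 genes were higher in induced ESC. Actn1, alpha-actinin 1, had 1615 CPM in induced and 246 in uninduced ESC, 6.58-fold higher (5.99 to 7.23). Tagln2 was 5.84-fold, Zyx 4.74-fold, Tpm4 3.31-fold, Vcl (vinculin) 3.27-fold and Myh9 (non-muscle myosin heavy chain A) 2.06-fold higher. WT ESC had 379 CPM of Actn1, 71.8 of Tagln2, 18.0 of Zyx, 192 of Tpm4 and 232 of Vcl. Myh9 had 1267 CPM in WT ESC, close to its 1432 CPM in induced ESC. The cytoplasmic actins differed in opposite directions and neither was called, with Actb at 1799 CPM in induced and 2657 in uninduced ESC, and Actg1 at 4337 in induced and 2976 in uninduced ESC.

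Acta2 and Myl9, both typical of smooth muscle, did not follow the class in every comparison. Acta2 had 9.88 CPM in induced and 2.47 in uninduced ESC, 4.0-fold higher (1.52 to 13.3), but WT ESC had 10.9, and the call was lost with a pseudocount of 5 (log2 change 0.99). Myl9 had 4.02 CPM in induced and 22.7 in uninduced ESC, 5.65-fold lower (2.88 to 12.1), and WT ESC had 2.72. Mylk and Myh11, the smooth muscle myosin kinase and heavy chain, had 0 counts in induced ESC and 1 count each in uninduced ESC. Of 12 skeletal and cardiac muscle markers, 2 were measured, 1 higher and 1 lower, with a summed level of 25.6 CPM in induced and 194 in uninduced ESC. Ttn was the lower one, with 8.78 CPM in induced and 185 in uninduced ESC, and Myl7 the higher one, with 8.05 and 2.47 CPM. Of the others, Tnni1 had 8 counts in induced and 1 in uninduced ESC, Myl2 had 5 and 0 counts, and Myod1, Myog, Myf5, Ckm and Myh3 were at 0 counts in induced ESC. Fibroblast markers, 2 of 5 measured higher and 1 lower, summed to 1185 CPM in induced and 1739 in uninduced ESC. The lower one was Fn1, with 643 CPM in induced and 1713 in uninduced ESC. The higher ones were Col1a1, with 508 and 6.92 CPM, and Thy1, with 11.0 and 2.97 CPM. All 7 of 7 ESC markers were lower, summing to 1304 CPM in induced and 6807 in uninduced ESC. Pericyte and vascular smooth muscle markers, 2 of 3 measured higher, summed to 379 CPM in induced and 129.5 in uninduced ESC with Rgs5 and Kcnj8 at 0 counts in both. The higher ones were Cspg4, with 85.6 CPM in induced and 0.494 in uninduced ESC, and Notch3, with 270.3 and 99.3 CPM. Macrophage markers, 2 of 2 measured higher (Csf1r and Cd68), summed to 120 CPM in induced and 12.4 in uninduced ESC, with C1qa, C1qb, Lyz2, Aif1 and Emr1 at 0 counts in both. Their part in the result was not tested.

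In MEF with c-Jun most of the contractile class was lower. Of 34 measured members, 2 were called higher and 13 lower than with DR, where 8.22% of all measured genes were called higher and 9.7% lower. In the contractile class 1 of 18 measured genes was higher and 11 were lower, with a median log2 change of -1.5, while the 15 non-muscle genes held 1 higher and 2 lower, with a median of -0.15, against 0.02 over all genes. Against WT MEF none of 34 was higher and 23 were lower, where 11.4% of all measured genes were called higher and 13.5% lower. The genes called lower include Mylk, Myl9, Myh11, Acta2 and Actg2, while Cald1, Smtn, Tpm2, Des and Pdlim7 of the same class were not called. Tpm2 lay on the threshold, with 216 CPM with c-Jun and 432 with DR, 2.0-fold lower (1.77 to 2.26).

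Mylk, which phosphorylates the myosin light chain, had 3.77 CPM in MEF with c-Jun and 82.6 with DR, 21.9-fold lower (10.4 to 55.4). Myl9, the light chain itself, had 55.4 CPM with c-Jun and 486 with DR, 8.77-fold lower (7.15 to 10.9). Actg2, enteric smooth muscle actin, had 41.4 and 227 CPM with c-Jun and DR, 5.48-fold lower (4.29 to 7.08). Each of these 3 was also lower with c-Jun than in WT MEF, where Mylk had 92.5, Myl9 825 and Actg2 405 CPM. Myh11 had 17.2 CPM with c-Jun and 87.8 with DR, 5.09-fold lower (3.48 to 7.68). Acta2, vascular smooth muscle actin, had 643 CPM with c-Jun and 3032 with DR, 4.72-fold lower (4.43 to 5.02). Cnn1 (calponin 1) was 4.15-fold and Lmod1 (leiomodin 1, which nucleates actin filaments) 3.92-fold lower. Tagln, Tpm1 and Csrp1 were 3.03-, 2.9- and 2.77-fold lower, and the non-muscle genes Cnn2 and Vcl 2.24- and 2.15-fold lower. Synpo2 rests on 5 counts with c-Jun and 14 with DR, and its interval of 0.914 to 9.53 for the 2.69-fold lower level includes 1. Its call was lost on TPM (log2 change -0.87) and with a pseudocount of 5 (-0.67). Mylk rests on 7 counts with c-Jun. Mylk and Synpo2 were measured only through DR and so could not have been called higher.

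Flnc and Tagln2 were the 2 members higher with c-Jun in MEF. Flnc had 1354 CPM with c-Jun and 543 with DR, 2.49-fold higher (2.32 to 2.68), and Tagln2 had 546 and 246 CPM, 2.22-fold higher (1.99 to 2.48). Both were within 2-fold of WT MEF, where Flnc had 989 and Tagln2 460 CPM. The ratio of Tagln to Tagln2 by TPM was 0.695 with c-Jun, against 4.67 with DR. The ratio of Acta2 to Actb was 0.28 with c-Jun and 1.29 with DR. Actb stayed at 2441 CPM with c-Jun and 2491 with DR, and Actg1 at 3738 and 3395 CPM. Beside these changes, 5 of 7 fibroblast markers were lower, with a summed level of 19291 CPM with c-Jun and 48908 with DR and none at 0, and 3 of 5 measured pericyte and vascular smooth muscle markers (a list that holds Myh11) were lower and 1, Rgs5, was higher, with 118 CPM with c-Jun and 349 with DR. Their part in the result was not tested.

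**Figure D3:**
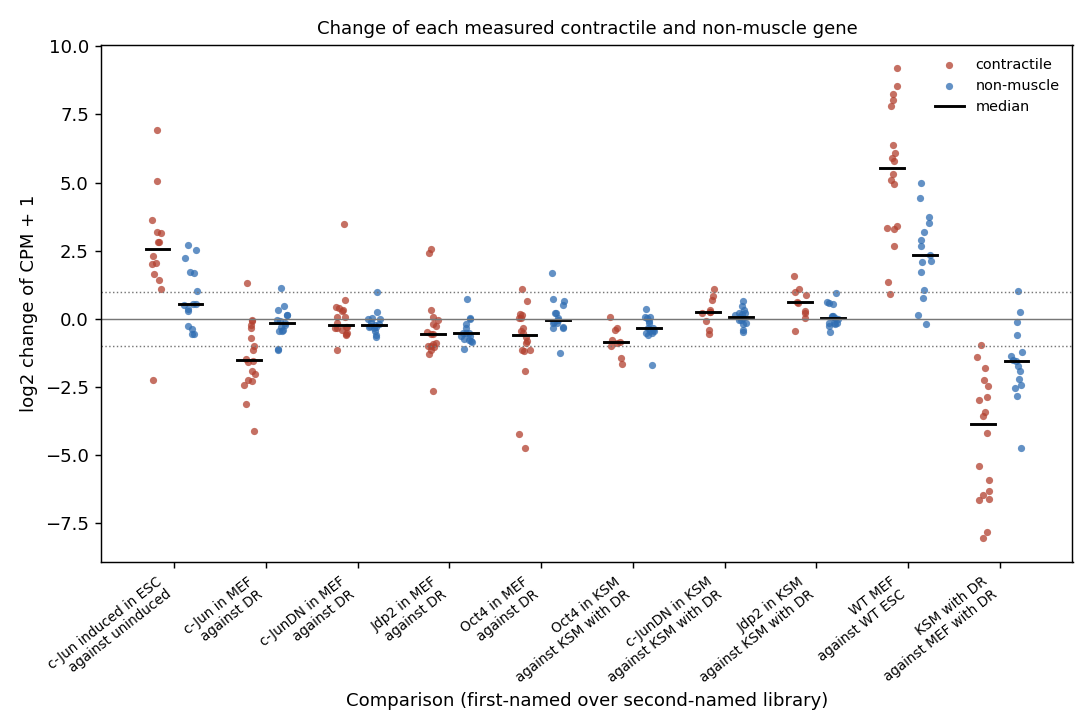
Each point is the log2 change of CPM + 1 of 1 measured contractile or non-muscle gene in 10 comparisons (first-named over second-named library), with black bars for the class median and dotted lines at 2-fold. The contractile median is 2.56 with c-Jun in ESC, -1.5 with c-Jun in MEF and -3.87 in KSM with DR against MEF with DR.

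c-Jun went with opposite changes in the 2 cell types for some members and with like changes for others, a difference that was not tested. Of 30 members measured in both c-Jun comparisons, 7 were called in opposite directions, higher in ESC and lower in MEF: Acta2, Cnn1, Csrp1, Synpo2, Tagln, Tpm1 and Vcl. They are 7 of the 20 members called in ESC and 7 of the 15 called in MEF. Among them, the ESC call of Acta2 was lost with a pseudocount of 5, and WT ESC had 10.9 CPM of Acta2. The MEF call of Synpo2 was lost on TPM and with a pseudocount of 5. Acta2, Cnn1 and Synpo2 reached 5 CPM in induced but not in uninduced ESC. Of 10097 genes measured in both comparisons, 2.55% were higher in ESC and lower in MEF and 4.47% were called in the same direction. Another 3 members were called in the same direction, Flnc and Tagln2 higher in both and Myl9 lower in both. Acta2 was at 9.88 CPM in induced ESC and 643 in MEF with c-Jun, and Tagln at 155 and 436 CPM in these libraries. Vcl was at 483 CPM in induced ESC and 450 in MEF with c-Jun, and Tpm1 at 1144 and 617 CPM. The 2 comparisons differ in the way c-Jun was delivered as well as in the cell type.

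**Figure D4:**
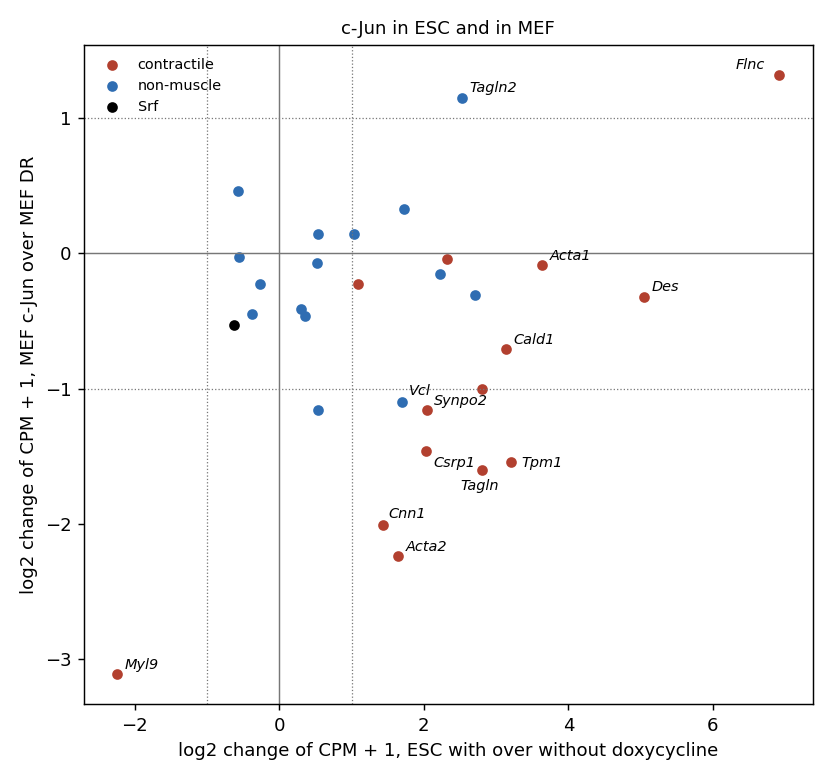
Log2 change of CPM + 1 of each member measured in both c-Jun comparisons, in ESC with over without doxycycline (x axis) and in MEF with c-Jun over MEF with DR (y axis), with dotted lines at 2-fold. The 7 genes called in opposite directions lie at the lower right, Flnc and Tagln2 at the upper right and Myl9 at the lower left.

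With c-JunDN in MEF most members stayed within 2-fold of DR. Of 34 measured members 2 were called higher and 1 lower, where 3.28% of all measured genes were called higher and 2.86% lower. The medians were -0.22 over contractile and -0.21 over non-muscle genes, against 0.0 over all genes. Acta1 stood apart. It had 183 CPM with c-JunDN and 15.5 with DR, 11.8-fold higher (8.15 to 17.7). WT MEF had 131.5 CPM, so that the level with c-JunDN was within 2-fold of WT MEF. None of the 12 skeletal and cardiac muscle markers was measured beside it, and they summed to 4.8 CPM with c-JunDN and 6.7 with DR, with Myod1, Myf5, Ckm, Tnni1, Nkx2-5 and Myl7 at 0 counts with c-JunDN. Myh10, non-muscle myosin heavy chain B, had 1417 CPM with c-JunDN and 708 with DR, 2.0-fold higher (1.88 to 2.13), a call that lies on the threshold and was lost with DESeq2 size factors and with a pseudocount of 5. Myh10 held 47.6% of the TPM of the 3 myosin heavy chain genes with c-JunDN and 24.8% with DR. Csrp1, a LIM protein of the actin cytoskeleton, had 207 CPM with c-JunDN and 457 with DR, 2.21-fold lower (1.97 to 2.47). Of the remaining genes with the largest changes, Mylk had 133 CPM with c-JunDN and 82.6 with DR, Vcl 607 and 965, and Actg2 149 and 227, none of them called. Macrophage markers, 3 of 6 measured higher, summed to 176 CPM with c-JunDN and 84.7 with DR.

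With Jdp2 in MEF more members were called lower than higher, and the share called higher was near that of all genes. Of 34 measured members 2 were called higher and 7 lower, where 5.95% of all measured genes were called higher and 6.41% lower, and the medians were -0.57 over contractile and -0.52 over non-muscle genes, against 0.0 over all genes. Mylk had 444 CPM with Jdp2 and 82.6 with DR, 5.38-fold higher (4.54 to 6.41), and Synpo2, which codes for the actin-bundling protein myopodin, had 47.1 CPM with Jdp2 and 7.23 with DR, 6.52-fold higher (3.69 to 12.4). Both were also over 2-fold higher than in WT MEF, where Mylk had 92.5 and Synpo2 11.7 CPM. Acta1 had 3 counts with Jdp2 and 30 with DR, 9.64-fold lower (3.0 to 49.4). It was measured only through DR and so could not have been called higher. Actg2 (2.48-fold), Tpm2 (2.2-fold), Zyx (2.18-fold) and Acta2 (2.08-fold) were lower. Acta2 had 1460.3 CPM with Jdp2 and 3032 with DR. Cnn1 and Tpm1 lay at the threshold, 2.02- and 2.01-fold lower, and both calls were lost with DESeq2 size factors, total count scaling, TPM and a pseudocount of 5. Tagln stayed at 1282 CPM with Jdp2 and 1321 with DR. Beside this, 6 of 8 pericyte and vascular smooth muscle markers were higher with Jdp2 (Rgs5, Mcam, Notch3, Myocd, Kcnj8 and Abcc9), with a summed level of 755 CPM with Jdp2 and 349 with DR and none at 0, while Myh11 had 62.1 and 87.8 CPM. Their part in the higher levels of Mylk and Synpo2 was not tested.

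Oct4 in MEF went with far lower levels of Mylk and Myh11, while Tagln and Myl9 stayed within 2-fold. Of 34 measured members 2 were called higher and 7 lower than with DR, where 11.6% of all measured genes were called higher and 10.3% lower. The contractile median was -0.59 and the non-muscle median -0.05, against 0.01 over all genes. Mylk had 2.13 CPM with Oct4 and 82.6 with DR, 38.7-fold lower (14.8 to 144), and Myh11 had 3.73 and 87.8 CPM, 23.5-fold lower (11.2 to 59.4). These levels rest on 4 counts of Mylk and 7 of Myh11 with Oct4. Both genes were measured only through DR and so could not have been called higher. Acta2 had 806 CPM with Oct4 and 3032 with DR, 3.76-fold lower (3.55 to 3.98). In contrast Tagln had 1352 CPM with Oct4 and 1321 with DR, and Myl9 had 548 and 486 CPM. Myh10 was 2.41-fold, Des 2.3-fold and Tpm1 2.19-fold lower. Acta1 was 2.42-fold lower from 12 counts with Oct4 and 30 with DR, a call lost with a pseudocount of 5. Zyx had 1774 CPM with Oct4 and 547 with DR, 3.25-fold higher (3.03 to 3.48), and was the highest of all 13 libraries. Actg2 had 481 and 227 CPM, 2.12-fold higher, and lost its call on TPM at a log2 change of 0.95. Fibroblast markers were 5 of 7 lower and 1 higher, summing to 18816 CPM with Oct4 and 48908 with DR, and all 6 measured macrophage markers were higher, summing to 271 CPM with Oct4 and 84.7 with DR. Pericyte and vascular smooth muscle markers, 2 of 4 measured lower, summed to 176 CPM with Oct4 and 349 with DR. The lower ones were Myh11, itself one of the 35 genes, and Mcam, with 43.2 CPM with Oct4 and 88.3 with DR. The part of these markers in the result was not tested. The annotation of this library differs from that of DR, and its part in these values was not tested.

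On day 3 of reprogramming the contractile genes were low, with a summed level of 771 CPM in KSM with DR and 10826 in MEF with DR. In KSM with DR, 1 of 34 measured members was called higher and 28 lower than in MEF with DR, where 18.7% of all measured genes were called higher and 19.9% lower. The contractile class had 17 of 18 measured genes lower and none higher, with a median log2 change of -3.87, and the non-muscle class had 11 of 15 lower and 1 higher, with a median of -1.54, against 0.07 over all genes. Of the 18 contractile genes, 9 reached 5 CPM in both libraries. The rest were measured only through MEF with DR and so could not have been called higher. Acta2 had 10.4 CPM in KSM with DR and 3032 in MEF with DR, 291-fold lower (198 to 446). Tagln had 12.0 CPM in KSM with DR and 1321 in MEF with DR, 110-fold lower (76.7 to 163). Myl9 had 4.01 and 486 CPM, 121-fold lower (65.6 to 254).

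Several smooth muscle genes reached the limit of detection in KSM with DR. Actg2 and Myh11 had 0 counts there, against 440 and 170 counts in MEF with DR, at least 189-fold and at least 72.9-fold lower against a floor of 3 counts per library. Cnn1 and Mylk had 1 count each in KSM with DR and 212 and 160 counts in MEF with DR, with intervals of 48.4 to 10800 and 36.4 to 8180 for the fold by which they were lower. Lmod1 had 3 counts, against 180 in MEF with DR (interval 26.0 to 378). Genes shared with non-muscle cells differed by less. Tpm1 was 7.93-fold, Cald1 7.39-fold, Actn1 5.91-fold, Myh9 2.87-fold and Actb 2.31-fold lower. Cnn2 was the non-muscle gene with the largest change, with 26.5 CPM in KSM with DR and 735 in MEF with DR, 27.8-fold lower (21.7 to 36.1). Actg1 (2258 CPM in KSM with DR, 3395 in MEF with DR), Tpm3, Actn4 and Srf stayed within 2-fold. Synpo2 was not called, at 3.21 CPM in KSM with DR (8 counts) and 7.23 in MEF with DR (14 counts). Tagln2 had 504 CPM in KSM with DR and 246 in MEF with DR, 2.05-fold higher, a call lost with DESeq2 size factors and on TPM (log2 changes of 0.96 and 0.99). All 7 fibroblast markers were lower beside this, summing to 1925 CPM in KSM with DR and 48908 in MEF with DR, and none was at 0 counts.

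**Figure D5:**
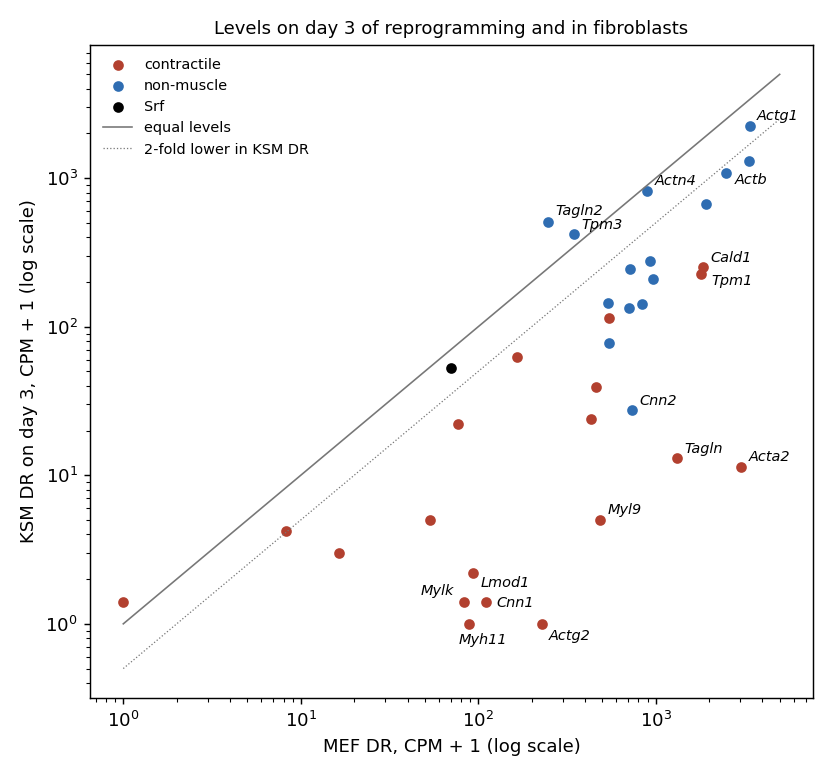
Each point is 1 gene, with CPM + 1 in MEF with DR on the x axis and in KSM with DR on day 3 on the y axis, both log scales. The smooth muscle genes Acta2, Tagln, Myl9, Actg2 and Cnn1 lie far below the line of equal levels, while Actg1, Actn4 and Tpm3 lie near it and Tagln2 above it.

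The libraries with an added factor differed from KSM with DR by small amounts around this low level. With Oct4, 0 of 25 measured members were called higher and 4 lower than in KSM with DR, where 4.77% of all measured genes were called higher and 6.8% lower, and the medians were -0.84 over 9 contractile and -0.35 over 15 non-muscle genes, against 0.07 over all genes. Cnn2 had 7.57 CPM with Oct4 and 26.5 with DR, 3.5-fold lower (2.18 to 5.79), Flnc had 35.1 and 113 CPM, 3.21-fold lower (2.58 to 4.02), and Tpm2 had 7.87 and 22.9 CPM, 2.9-fold lower (1.8 to 4.81). Tagln was 2.21-fold lower from 18 counts with Oct4 and 30 with DR (1.19 to 4.21), and lost its call with a pseudocount of 5. Pdlim7 and Csrp1, the next in size, were not called, with 32.7 and 20.9 CPM with Oct4 and 61.8 and 38.1 with DR. Of 7 fibroblast markers 2 were lower and none higher, although their sum was 2481 CPM with Oct4 and 1925 with DR.

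With c-JunDN in KSM, 1 of 26 measured members was called higher and none lower, where 1.69% of all measured genes were called higher and 1.75% lower. It was Acta2, with 23.5 CPM with c-JunDN and 10.4 with DR, 2.26-fold higher (1.42 to 3.69), a call lost with a pseudocount of 5 (log2 change 0.89). With Jdp2 in KSM, 2 of 26 were called higher and none lower, where 3.13% were called higher and 1.35% lower. The count of members higher was 4 on total count scaling, 5 on TPM and 1 with a pseudocount of 5. Acta2 had 32.7 CPM with Jdp2 and 10.4 with DR, 3.13-fold higher (2.0 to 5.06), and Tagln had 27.1 and 12.0 CPM, 2.25-fold higher (1.45 to 3.57), a call lost with a pseudocount of 5. The contractile medians were 0.25 with c-JunDN and 0.61 with Jdp2, and the non-muscle medians 0.08 and 0.05. These Acta2 levels rest on 70 counts with c-JunDN, 88 with Jdp2 and 26 with DR, and even the highest is 32.7 CPM, against 3032 in MEF with DR. Fibroblast markers moved the same way, with 3 of 7 higher and a sum of 3489 CPM with Jdp2, 1 of 7 higher and 2791 CPM with c-JunDN, and 1925 CPM with DR, and their part was not tested. Acta2 is the only member called in opposite directions for Jdp2 in the 2 settings, higher in KSM and lower in MEF. Jdp2 itself stood at 403 CPM in KSM with Jdp2 and 7741 in MEF with Jdp2.

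Over the 8 comparisons with a matched control, 26 of the 35 genes were called at least once and 9 never. Of the 34 members measured at least once these 26 are 76.5%, and of all 13193 genes so measured 57.9% were called. The 9 are Actb, Actg1, Actn4, Cnn3, Flna, Myl6, Tpm3 and Srf, measured in all 8, and Actc1, measured in none. Srf, the regulator, had log2 changes between -0.63 (c-Jun in ESC) and 0.25 (c-JunDN in KSM). Of the 26, 15 were called in both directions, 7 only higher and 4 only lower. The 15 are 44.1% of the 34 measured members, and 13.0% of all measured genes were called in both directions. Acta2 was called 6 times, 3 times higher and 3 times lower, and Tpm1 4 times, once higher and 3 times lower.

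The controls themselves differed. MEF with DR against WT MEF had 0 of 34 measured members called higher and 10 lower, where 9.81% of all measured genes were called higher and 10.5% lower. On total count scaling, the same comparison had 1 higher and 5 lower, and 83.3% of all called genes were higher, against 48.2% on CPM and 66.7% on TPM. Acta1 had 15.5 CPM with DR and 131.5 in WT MEF, 8.49-fold lower (5.93 to 12.6). Actb had 2491 CPM with DR and 6127 in WT MEF, 2.46-fold lower, and Acta2 was 2.3-fold lower, but both calls were lost on total count scaling (log2 changes of -0.89 and -0.79). The uninduced c-Jun line against WT ESC had 6 of 27 measured members higher and 2 lower, where 6.33% of all measured genes were called higher and 18.3% lower. Myl9 had 22.7 CPM in the uninduced line and 2.72 in WT ESC, 8.37-fold higher (5.12 to 13.9), and Cald1 had 70.7 and 309 CPM, 4.37-fold lower (3.7 to 5.21). Fibroblast markers summed to 1739 CPM in the uninduced line and 4687 in WT ESC, 6 of 7 lower. Fn1, the one not called, made most of both sums, with 1713 CPM in the uninduced line and 3384 in WT ESC. Col1a1 had 6.92 CPM in the uninduced line and 480 in WT ESC, Col1a2 8.9 and 388.5, and Col3a1 2.47 and 395. With DESeq2 size factors 37.1% of all called genes were higher in that comparison, against 25.7% on CPM.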

How the data were processed

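RNA was measured in 13 libraries. The submitters' processing notes name mm9, Bowtie2 2.2.3 and RSEM 1.1.21, and give no other detail of the steps here. The authors deposited an expected count per gene, rounded here to a whole number. The deposited fraction of transcripts of 12 libraries, made by the authors, sums to 1 and was scaled to TPM. For the MEF Oct4 library the authors deposited TPM on Ensembl genes. Its IDs were matched to the 20325 names of the other libraries, 17964 by symbol and 1702 by synonym, and the 19666 shared names hold 96.89% of its counts. The deposited TPM and fractions served for levels per length. The peak lists of the immunoprecipitation samples and the input were not used here.

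TMM factors from edgeR 4.0.16 in R 4.3.3 on the shared names (0.741 to 1.127) gave CPM. Changes are log2 ratios with a pseudocount of 1, at least 5 CPM in 1 of 2 libraries and 2-fold for a call. No test over replicates was possible. Ratio intervals are exact conditional binomial 95% intervals. Alternatives were DESeq2 1.42.0 size factors, total counts, TPM, a pseudocount of 5, no minimum, expected counts for the actin shares and, added after seeing the data, TMM factors from all names. The members and lists were chosen with earlier results of these data known. Named genes are the 6 members with the largest absolute log2 change among those measured in each comparison with a matched control, with Actb, Actg1 and Srf, 24 members in all. A list of regulatory genes outside the 35 is not reported here. Other members are given by class counts or were named after their values were seen.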

Additional observations from a re-analysis of the deposited data

Results flagged for a closer look

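For 7 genes the log2 change with c-Jun was past 2-fold upwards in ESC and past 2-fold downwards in MEF, and the difference between the 2 changes is given here. It was not tested, since each group is 1 library. The difference, ESC minus MEF, was 3.88 for Acta2, 3.44 for Cnn1, 3.49 for Csrp1, 3.2 for Synpo2, 4.41 for Tagln, 4.74 for Tpm1 and 2.8 for Vcl. The value of Synpo2 in MEF rests on 5 and 14 counts, and that of Acta2 in ESC on 27 and 5 counts. Both calls were lost with a pseudocount of 5. For Jdp2, Acta2 was past 2-fold upwards in KSM and past 2-fold downwards in MEF, and the difference, KSM minus MEF, was 2.61, also not tested.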

How the results depend on the processing

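Of 139 calls on members in 12 comparisons, 134 were kept with DESeq2 size factors, 131 on total count scaling, 131 on TPM, 128 with a pseudocount of 5 and 139 with no minimum, and 130 of 130 with TMM factors from all names, a setting added after seeing the data. No call changed sign. The number of members called higher became 1 with c-JunDN in MEF (DESeq2 size factors, pseudocount 5), 0 in KSM with DR against MEF with DR (DESeq2 size factors, TPM), 1 with Oct4 in MEF (TPM) and 0 with c-JunDN in KSM (pseudocount 5). With Jdp2 in KSM it became 4 on total count scaling, 5 on TPM and 1 with a pseudocount of 5. MEF with DR against WT MEF had 1 higher and 5 lower on total count scaling. With no minimum, Oct4 in KSM had 1 higher and 7 lower and Jdp2 in KSM 1 lower, from genes under 5 CPM in both libraries. The muscle actin share on expected counts, not per length, was 10.2% with c-Jun, 33.9% with c-JunDN, 28.6% with Jdp2, 17.3% with Oct4, 35.7% with DR and 36.9% in WT MEF, and 0.64% in induced ESC. The causes of these changes were not tested otherwise. The median of all genes moved by 0.27 with c-Jun in ESC on TPM and by 0.41 in MEF with DR against WT MEF on total count scaling. With 3 counts worth 0.908 to 1.61 CPM outside the WT libraries, Actg2, Myh11, Mylk, Cnn1 and Lmod1 in KSM, and Actg2, Myh11 and Mylk in the c-Jun ESC line, are at or near the limit of this depth. No paired analysis was possible because each group has 1 library.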
